A study of Mus musculus with 13 samples.

Results

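The genes described are 3 receptors for fibroblast growth factors (Fgfr1, Fgfr2 and Fgfr3) and 6 genes that the same signal switches on and that act on it in turn (Spry1, Spry2, Spry4, Dusp6, Etv4 and Etv5). They were taken by symbol from a table of 12880 genes, and all 9 were listed. The table holds gene expression by RNA sequencing in mouse embryonic limb buds from 13 libraries, with limb buds of 3 or 4 embryos in each of 4 groups. At the embryonic stage E11.5, 3 control libraries came from Sox9fl/- embryos, which carry 1 floxed and 1 null Sox9 allele, and 4 libraries labelled Sox9null came from Sox9-/- embryos. At E12.5, 3 control libraries came from Sox9fl/fl embryos and 3 libraries labelled Sox9cKO came from Sox9fl/flPrx1CreER embryos, in which Prx1 regulatory sequence, active in limb mesenchyme, drives an inducible Cre recombinase that removes the floxed alleles. The controls of the 2 stages thus differ in Sox9 alleles as well as in age, and the mutants differ in how Sox9 was lost. The sources used here name neither the Cre line behind the Sox9-/- embryos nor the induction of CreER. The series asks what the limb bud does without SOX9, the transcription factor of cartilage precursors, at the onset of chondrogenesis.

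In the limb bud, FGFs from the apical ectodermal ridge and from the mesenchyme beneath it bind receptor tyrosine kinases and activate the RAS-ERK cascade, which keeps distal mesenchyme growing and patterned. The cascade induces its own brakes, the Sprouty proteins and the ERK phosphatase DUSP6, and the ETS transcription factors ETV4 and ETV5, so the transcripts of these genes are commonly read as a record of FGF input. FGFR1 is the receptor of undifferentiated distal mesenchyme, the splice forms of FGFR2 serve ectoderm and condensing mesenchyme, and FGFR3 is known from growth cartilage, where it restrains chondrocyte proliferation.

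All 9 genes are protein-coding in the GENCODE M21 annotation of GRCm38, the assembly also called mm10. The receptor genes are Fgfr1 (ENSMUSG00000031565, chr8:25513654-25575718, plus strand), Fgfr2 (ENSMUSG00000030849, chr7:130162451-133123350, minus strand) and Fgfr3 (ENSMUSG00000054252, chr5:33721674-33737068, plus strand). The feedback inhibitor genes are Spry1 (ENSMUSG00000037211, chr3:37639947-37644598, plus), Spry2 (ENSMUSG00000022114, chr14:105891947-105896819, minus), Spry4 (ENSMUSG00000024427) and Dusp6 (ENSMUSG00000019960, chr10:99263231-99267489, plus). The ETS factor genes are Etv4 (ENSMUSG00000017724, chr11:101769742-101785371, minus) and Etv5 (ENSMUSG00000013089, chr16:22381309-22439719, minus).

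Promoter sequence is described for 6 of the 9 genes, in 8 windows of 250 bases ending just before a RefSeq transcript start (GRCm38.p6). No window was at hand for Fgfr1 and Etv4, and Spry4 was left out of the search. The windows of a receptor gene that rose with stage (Fgfr3, the first of its 2 starts, chr5:33721474-33721723, plus strand), of an inhibitor gene that fell (Dusp6, chr10:99262981-99263230, plus strand) and of one that passed no test (Spry2, chr14:105896820-105897069, minus strand) are shown 5′ to 3′, with the ETS core letters GGAA, or TTCC where the match is on the other strand, in capitals.
Fgfr3: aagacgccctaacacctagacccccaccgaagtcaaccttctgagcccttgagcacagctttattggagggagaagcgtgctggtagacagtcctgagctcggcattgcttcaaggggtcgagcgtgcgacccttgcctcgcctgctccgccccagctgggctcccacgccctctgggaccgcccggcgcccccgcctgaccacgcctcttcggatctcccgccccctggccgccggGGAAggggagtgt
Dusp6: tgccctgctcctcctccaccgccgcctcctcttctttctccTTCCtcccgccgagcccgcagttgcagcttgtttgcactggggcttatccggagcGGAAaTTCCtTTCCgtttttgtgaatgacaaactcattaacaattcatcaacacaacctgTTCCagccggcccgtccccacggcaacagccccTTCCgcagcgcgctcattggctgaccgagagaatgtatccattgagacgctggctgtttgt
Spry2: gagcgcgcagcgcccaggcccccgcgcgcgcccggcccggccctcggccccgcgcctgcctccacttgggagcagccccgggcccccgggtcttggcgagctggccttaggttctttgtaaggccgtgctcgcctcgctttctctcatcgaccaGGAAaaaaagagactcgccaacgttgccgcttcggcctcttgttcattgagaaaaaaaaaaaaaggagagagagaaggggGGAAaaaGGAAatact
The Dusp6 window held 6 GGAA matches, the Spry2 window 3, the first Fgfr3 window 1 and the second Fgfr3 window, not shown, 5. The median over all 32851 promoter windows of this length was 3. At least 1 match was held by 93.4% of them and by 7 of the 8 windows of these genes. The longer ETS letters CCGGAA, searched on both strands like the other motifs and overlapping GGAA, occurred in 12% of all windows and in 0 of the 8 windows of these genes. Of the letters recognised by SOX proteins, ACAAAG occurred in 16.5% of all windows and in 1 of the 8, that of Spry2, and ACAATG occurred in 10.7% of all windows and in 0 of the 8. These matches describe the letters in these windows only.

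Values are normalised RPKM. RPKM are read counts scaled to transcript length and to the mapped reads of the library. The sources used here name neither the further normalisation nor the gene lengths. Levels of different genes within a library are set side by side as far as the length scaling holds. Differences are given on the scale of log2(RPKM + 1) with the standard error (SE) from a limma model over all 12880 genes and 13 libraries, and a gene was called where its Benjamini-Hochberg adjusted p was under 0.05. The depth of each library cannot be read from RPKM and is unknown. The level of Sox9 itself averaged 40.7 RPKM in E11.5 controls and 23.5 RPKM in Sox9null libraries (log2 difference -0.76, adjusted p = 0.036), and 36.2 and 32.0 RPKM at E12.5 (log2 difference -0.18, adjusted p = 1), with no overlap of libraries at either stage. Of all genes, 2.47% were without overlap at E11.5 (1.06% lower in the mutants) and 20% at E12.5 (8.5% lower). The sources used here do not say whether the reads counted for Sox9 lie in the deleted part of the gene. The defining markers of limb mesenchyme were present in all 4 groups: 11 of 11 were listed, and their summed level ran from 359 to 397 RPKM over the 13 libraries. Across all genes the E11.5 libraries fell into 2 sets that cut across genotype, one of 4 libraries (controls 1 and 3, Sox9null 3 and 4) and one of 3 (control 2, Sox9null 1 and 2). Correlations across genes, which are not independent replicates, were 0.979 to 0.989 within the sets and 0.938 to 0.966 between them. Y-linked genes were high in 1 of 3 E11.5 controls, 1 of 4 Sox9null libraries, all 3 E12.5 controls and 1 of 3 Sox9cKO libraries. In whole limb buds, fewer cells of a type and less RNA per cell cannot be told apart.

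**Figure D1:**
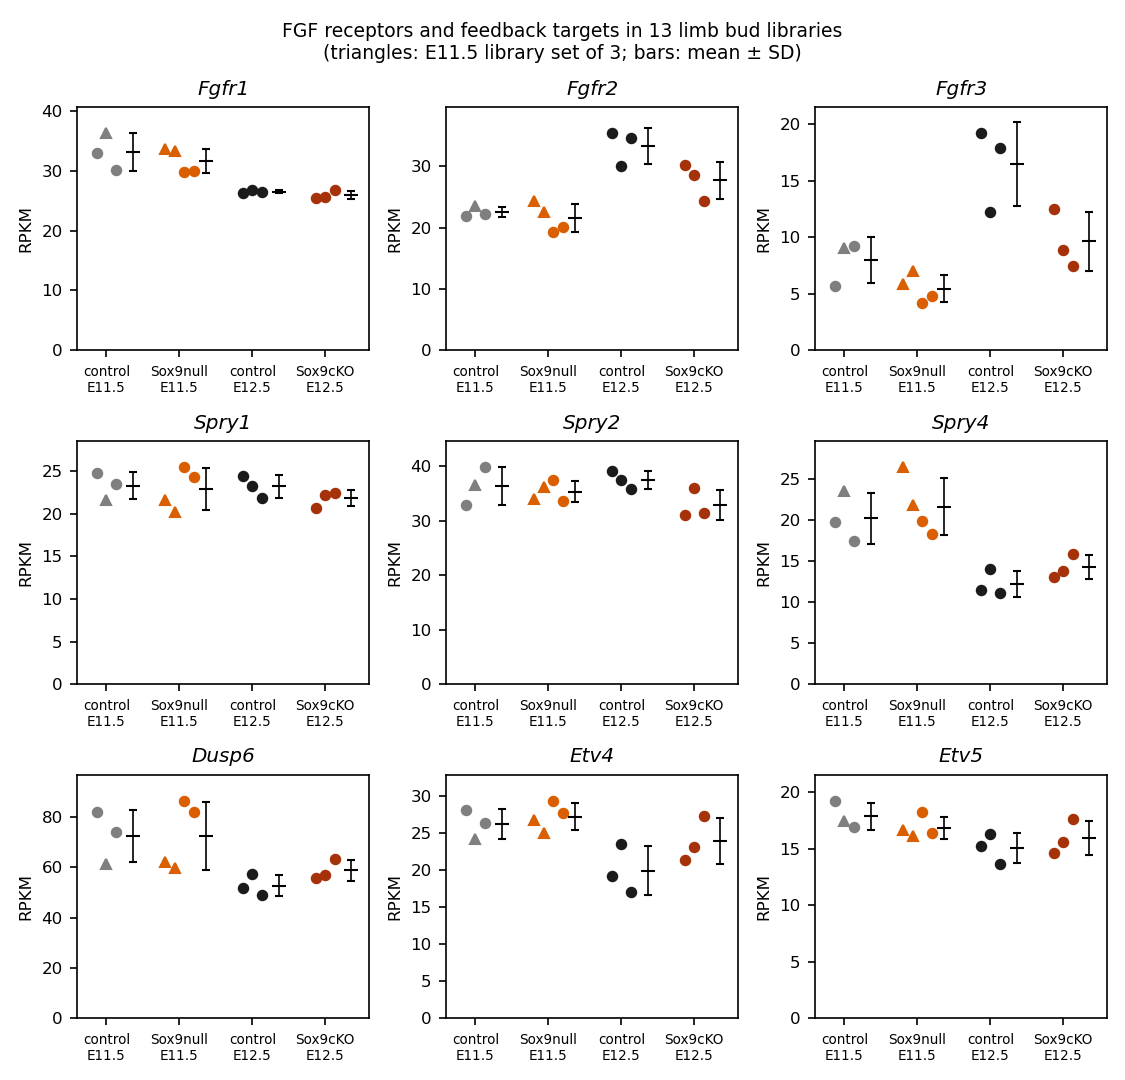
RPKM of each gene (y axis, linear from 0) by group (x axis, 1 symbol a library), with triangles for the E11.5 library set of 3 and bars for the mean ± SD. Fgfr2 and Fgfr3 stand higher at E12.5, Fgfr1 and Spry4 stand lower, and mutant and control libraries of the same stage overlap in all 9 panels.

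Dusp6 had the highest level in every group and Fgfr3 the lowest in 3 of the 4. In E11.5 controls the means ran from 72.5 RPKM for Dusp6 through 36.4 for Spry2, 33.1 for Fgfr1, 26.2 for Etv4, 23.3 for Spry1, 22.5 for Fgfr2, 20.2 for Spry4 and 17.9 for Etv5 to 8.00 for Fgfr3. The library ranges of neighbours in this order overlapped, except between Dusp6 and Spry2, between Fgfr1 and Etv4, and between Etv5 and Fgfr3. In E12.5 controls Dusp6 (52.7 RPKM) and Spry2 (37.5 RPKM) again led, but Fgfr2 (33.4 RPKM) now stood above Fgfr1 (26.5 RPKM) in all 3 libraries, and Spry4 (12.2 RPKM) was lowest. Fgfr3 (16.5 RPKM) stood among Etv4 (19.9 RPKM) and Etv5 (15.09 RPKM), with overlapping ranges.

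Between E11.5 and E12.5 in control limb buds, the receptor genes changed in opposite directions. Fgfr2 and Fgfr3 rose and Fgfr1 fell, while among the induced genes Spry4, Dusp6 and Etv4 fell and Spry1, Spry2 and Etv5 passed no test. That makes 6 of 9 genes called, 2 higher and 4 lower, against 21.7% of all genes called in this comparison (16.5% higher and 5.19% lower). The median log2 difference of the 9 genes was -0.23, and that of all genes was 0.06.

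Fgfr3 had the largest difference of the 9 between the control groups. Its levels were 5.66, 9.09 and 9.26 RPKM in the E11.5 controls and 19.2, 12.2 and 17.9 RPKM in the E12.5 controls. All E12.5 controls lay above all E11.5 controls. The rise was 0.96 on the log2 scale (SE 0.23, limma adjusted p = 0.0139). The call was lost without E11.5 control 1 (adjusted p = 0.0568), E12.5 control 1 (0.0648) or E12.5 control 3 (0.0541). Summed levels of 14 cartilage marker genes moved with it, from 189 to 265 RPKM in the E11.5 controls to 326 to 409 RPKM in the E12.5 controls, with 10 of the 14 genes called higher and 0 lower. Of these, Acan, Matn1 and Mia1 met the authors' filter (a mean of at least 3 RPKM in some group) only through the E12.5 controls. The filter favours a rise in such genes. Markers of other cell types were higher too: skeletal muscle markers went from 62.2 to 92.5 RPKM to 181 to 218 RPKM (7 of 9 called higher and 1 lower), macrophage and leukocyte markers from 40.7 to 48.9 RPKM to 69.6 to 79.1 RPKM (6 of 8 higher, 0 lower), and nerve and Schwann cell markers from 38.0 to 42.3 RPKM to 60.3 to 64.2 RPKM (2 of 4 higher, 0 lower). Of all genes, 16.5% were called higher and 5.19% lower in this comparison. The part of any of these lists in the Fgfr3 result was not tested.

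Fgfr2 was at 21.9, 23.4 and 22.2 RPKM in E11.5 controls and at 35.4, 30.0 and 34.7 RPKM in E12.5 controls. The groups did not overlap, and Fgfr2 rose by 0.54 (SE 0.10, adjusted p = 0.00319). Fgfr1 was at 33.0, 36.3 and 30.1 RPKM at E11.5 and at 26.2, 26.8 and 26.4 RPKM at E12.5. Every E12.5 control lay below every E11.5 control, and Fgfr1 fell by 0.31 (SE 0.07, adjusted p = 0.00881). Both calls held in all 21 alternative analyses. At E11.5 these receptor genes moved with the library sets, and no test was made of that split. The sets were drawn from the values of all genes, these included. The share of all genes that separate the sets was not counted, so such a split is not shown to be particular to these genes. That holds for every gene compared between the sets below. In the set of 4 against the set of 3, Fgfr1 ran from 29.7 to 33.0 and from 33.2 to 36.3 RPKM, and Fgfr2 from 19.3 to 22.2 and from 22.5 to 24.4 RPKM. Against the E11.5 controls of the set of 4 the stage difference was -0.24 for Fgfr1 and 0.57 for Fgfr2, and against the control of the set of 3 it was -0.44 and 0.49. The sets were drawn from the E11.5 libraries alone, and which set the E12.5 libraries resemble was not examined.

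Among the inhibitors, Spry4, a membrane-associated brake on receptor signalling to ERK, was at 19.7, 23.5 and 17.4 RPKM in E11.5 controls and at 11.4, 14.01 and 11.1 RPKM in E12.5 controls. The groups did not overlap. Spry4 fell by 0.68 (SE 0.14, adjusted p = 0.00608), a call that held in all 21 alternatives. At E11.5 the library set of 4 ran from 17.4 to 19.9 RPKM, below the set of 3 at 21.8 to 26.4 RPKM, and the stage difference was -0.57 against the controls of the first set and -0.90 against the control of the second.

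Dusp6, the cytoplasmic phosphatase that inactivates ERK, was at 82.2, 61.5 and 74.0 RPKM in E11.5 controls and at 51.8, 57.3 and 49.0 RPKM in E12.5 controls. The groups did not overlap, though E11.5 control 2 lay close to E12.5 control 2. Dusp6 fell by 0.45 (SE 0.15, adjusted p = 0.0482), near the threshold, and the call held in 10 of 21 alternatives, with adjusted p from 7.94e-05 to 0.155. It was lost with the filter at a mean of 5 RPKM (0.0522), and without any 1 of E11.5 control 1 or 3, the 3 E12.5 controls or the 3 Sox9cKO libraries (0.0607 to 0.155). With quantile normalization the difference was -0.24 (adjusted p = 0.0581). Dusp6 levels did not overlap between the E11.5 sets, 74.0 to 86.3 RPKM in the set of 4 against 59.6 to 62.1 RPKM in the set of 3. The stage difference in controls was -0.56 against the first set and -0.22 against the second.

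Spry1 and Spry2, inhibitors of the same family, stayed near 23 and 37 RPKM on average. Spry1 ran from 21.6 to 24.8 RPKM in E11.5 controls and from 21.9 to 24.5 RPKM in E12.5 controls (log2 difference -0.01, adjusted p = 0.973). Spry2 ran from 32.8 to 39.8 and from 35.8 to 39.1 RPKM (0.05, adjusted p = 0.7). Both pairs of groups overlapped. Spry1 too followed the E11.5 sets, with the set of 4 at 23.5 to 25.5 RPKM above the other set at 20.2 to 21.6 RPKM. Here again the share of all genes that separate the sets was not counted.

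Of the ETS factors, which act with ERK to pattern the distal limb, Etv4 was at 28.1, 24.2 and 26.4 RPKM in E11.5 controls and at 19.2, 23.6 and 17.1 RPKM in E12.5 controls. The groups did not overlap, by a narrow gap. Etv4 fell by 0.39 (SE 0.11, adjusted p = 0.0311), and the call held in 15 of 21 alternatives. It was lost with only the control groups in the fit (adjusted p = 0.0526), and without E11.5 control 1 (0.102) or 3 (0.0664) or E12.5 control 1 (0.103) or 3 (0.121). Etv5 was at 19.2, 17.4 and 17.0 RPKM at E11.5 and at 15.27, 16.3 and 13.7 RPKM at E12.5. Its groups did not overlap either, but the difference of -0.23 was not called (adjusted p = 0.0632). It was called with quantile normalization (-0.32, adjusted p = 0.0148), with the library set in the model (-0.25, 0.0228) and with sex in the model (-0.35, 0.00648). The library set term coded the E12.5 libraries like the E11.5 set of 4, against whose controls the Etv5 difference was -0.25. In all, control libraries of the 2 stages did not overlap for 7 of the 9 genes, 2 higher and 5 lower, against 45.9% of all genes (32.6% higher and 13.3% lower).

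**Figure D2:**
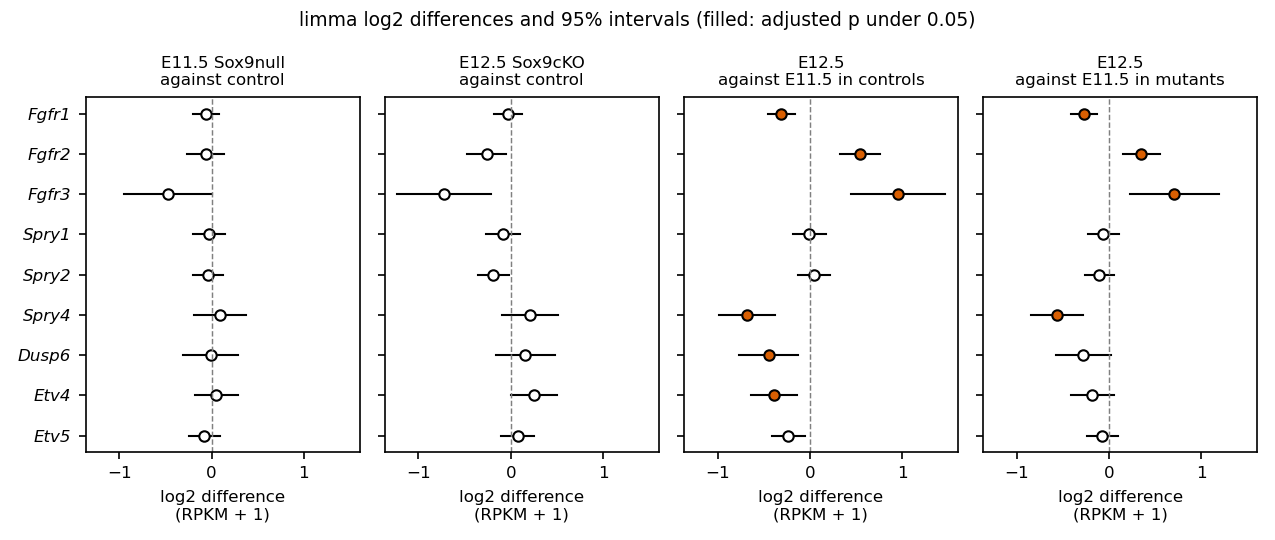
Log2 differences of RPKM + 1 (x axis) with 95% intervals for the 9 genes (y axis) in 4 comparisons, with filled points where the limma adjusted p was under 0.05. No point is filled in the mutant comparisons; 6 are filled by stage in controls and 4 by stage in mutants.

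The mutants showed 4 of the same 9 genes called between stages (2 higher and 2 lower), against 19.7% of all genes called (14.5% higher and 5.23% lower). The median log2 difference of the 9 was -0.10, and that of all genes was 0.06. The Sox9null and Sox9cKO embryos differ in alleles as well as in age. Fgfr3 was at 5.84, 6.99, 4.21 and 4.82 RPKM in Sox9null libraries and at 12.51, 8.89 and 7.49 RPKM in Sox9cKO libraries. These groups did not overlap, and Fgfr3 rose by 0.71 (SE 0.22, adjusted p = 0.0412). Fgfr2 was at 24.4, 22.5, 19.3 and 20.1 RPKM and then at 30.3, 28.5 and 24.4 RPKM. Sox9cKO 3 lay just under Sox9null 1, so the groups overlapped, and Fgfr2 rose by 0.35 (SE 0.09, adjusted p = 0.0235). The Fgfr3 call held in 11 of 21 alternatives and was lost with quantile normalization (adjusted p = 0.0589), with only the mutant groups in the fit (0.0634), and without Sox9null 1, 3 or 4, E12.5 control 1 or 3 or Sox9cKO 1 or 2 (0.051 to 0.166). The Fgfr2 call held in 17 and was lost with quantile normalization (0.0759), with only the mutant groups (0.0721) and without Sox9cKO 1 or 2.

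Fgfr1 was at 33.6, 33.2, 29.7 and 30.0 RPKM in Sox9null libraries and at 25.4, 25.6 and 26.8 RPKM in Sox9cKO libraries. It fell by 0.27 (SE 0.06, adjusted p = 0.0144), with no overlap. Spry4 was at 26.4, 21.8, 19.9 and 18.3 RPKM and then at 13.0, 13.8 and 15.87 RPKM, again with no overlap. Spry4 fell by 0.56 (SE 0.13, adjusted p = 0.0145). None of the 4 genes was called without Sox9cKO 1 (adjusted p from 0.0607 to 0.166) or without Sox9cKO 2 (0.0657 to 0.104).

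Dusp6 in the mutants ran from 59.6 to 86.3 RPKM in Sox9null libraries and from 55.9 to 63.5 RPKM in Sox9cKO libraries (log2 difference -0.28, adjusted p = 0.162). The 2 Sox9null libraries of the set of 3, at 62.1 and 59.6 RPKM, lay within the Sox9cKO range, and the 2 of the set of 4, at 86.3 and 81.9 RPKM, lay above it. The difference was -0.51 against the latter and -0.05 against the former. With the library set in the model Dusp6 was called (-0.49, adjusted p = 0.000347), as was Spry1 (-0.17, adjusted p = 0.0225). That term coded the E12.5 libraries like the E11.5 set of 4. Both values lie near the differences against the Sox9null libraries of that set, -0.51 for Dusp6 and -0.18 for Spry1. Etv4 (-0.18, adjusted p = 0.234), Etv5 (-0.07, 0.503) and Spry2 (-0.10, 0.318) were not called. Mutant libraries of the 2 stages did not overlap for 3 of the 9 genes (Fgfr3 higher, Fgfr1 and Spry4 lower), against 33.5% of all genes (23.7% higher and 9.75% lower).

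In Sox9null against control limb buds at E11.5, 0 of the 9 genes were called, against 0.0543% of all genes called (0% higher and 0.0543% lower; 7 of 12880, with 363 at an unadjusted p under 0.05). Control and Sox9null libraries overlapped for all 9, against 2.47% of all genes without overlap (1.41% higher and 1.06% lower). Fgfr3 had the largest difference: 5.66, 9.09 and 9.26 RPKM in controls against 5.84, 6.99, 4.21 and 4.82 RPKM in Sox9null libraries. The lowest control lay among the mutants, and the difference was -0.47 (95% interval -0.95 to 0.01, adjusted p = 1). Within the library sets it was -0.59 (set of 4) and -0.45 (set of 3). The other 8 genes had differences from -0.08 (Etv5) to 0.09 (Spry4), each with an adjusted p of 1. Fgfr1 and Fgfr2 were both at -0.06, with intervals of -0.20 to 0.08 and -0.26 to 0.14. Among the induced genes the intervals of Spry1 (-0.20 to 0.14), Spry2 (-0.20 to 0.12) and Etv5 (-0.25 to 0.09) were narrower than those of Dusp6 (-0.31 to 0.29), Spry4 (-0.19 to 0.38) and Etv4 (-0.18 to 0.28). The median of the 9 genes was -0.04 and that of all genes 0.01.

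At E12.5, too, none of the 9 was called in Sox9cKO against control limb buds, against 0.194% of all genes called (0.0543% higher and 0.14% lower; 25 of 12880, with 697 at an unadjusted p under 0.05). None was free of overlap, against 20% of all genes, with 8.5% lower in the mutants. The Fgfr3 levels were 19.2, 12.2 and 17.9 RPKM in controls and 12.51, 8.89 and 7.49 RPKM in Sox9cKO libraries. Sox9cKO 1 lay just above E12.5 control 2, the only crossing of the groups. The difference of -0.72 had a 95% interval of -1.23 to -0.21 before adjustment for the number of genes, and an adjusted p of 0.495. Over the 21 alternatives the difference ran from -1.04 to -0.57 and the adjusted p from 0.0612 to 1.

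Fgfr2 was at 35.4, 30.0 and 34.7 RPKM in E12.5 controls and at 30.3, 28.5 and 24.4 RPKM in Sox9cKO libraries (-0.26, interval -0.48 to -0.05, adjusted p = 0.657). Fgfr1 gave the narrowest interval of the receptor genes, -0.18 to 0.12. Etv4 was at 19.2, 23.6 and 17.1 RPKM in controls and at 21.4, 23.1 and 27.3 RPKM in Sox9cKO libraries (0.26, interval 0.01 to 0.51, adjusted p = 0.887). Among the other induced genes, the difference was -0.19 for Spry2 (adjusted p = 0.781), -0.09 for Spry1, 0.21 for Spry4, 0.16 for Dusp6 and 0.08 for Etv5, with an adjusted p of 1 for the last 4. The 3 receptor genes thus had negative point estimates, the 2 ETS factor genes had positive ones, and the 4 inhibitor genes were divided 2 and 2. The median of the 9 was -0.03 and that of all genes 0.01. The difference of the mutant effects between stages was called for none of the 9, against 0.0311% of all genes (0.0233% higher and 0.00776% lower; 4 genes, with 393 at an unadjusted p under 0.05), and for Fgfr3 it was -0.25 (SE 0.32, adjusted p = 1). It was 0.03 for Fgfr1, -0.20 for Fgfr2, -0.06 for Spry1, -0.15 for Spry2, 0.12 for Spry4, 0.17 for Dusp6, 0.21 for Etv4 and 0.16 for Etv5, each with an adjusted p of 1.

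The cartilage marker genes moved beside Fgfr3 in these comparisons. Their summed level was 189 to 265 RPKM in E11.5 controls and 120 to 145 RPKM in Sox9null libraries, and 326 to 409 RPKM in E12.5 controls and 183 to 247 RPKM in Sox9cKO libraries. All 14 were listed. At each stage 4 were called lower, beside 0.0543% of all genes at E11.5 and 0.14% at E12.5. Those called at E11.5 include Sox9 itself. Among those called at E12.5, Acan, Matn1 and Mia1 had a mean of at least 3 RPKM only in the E12.5 controls. They met the authors' filter through that group alone, which favours a lower value in the mutants. The order of single libraries was alike in part. Sox9null 3 had the lowest Fgfr3 level (4.21 RPKM) with a marker sum of 121 RPKM, and E12.5 control 1 the highest (19.2 RPKM) with 394 RPKM. E12.5 control 2, the lowest of its group for Fgfr3 at 12.2 RPKM, was also the lowest for the markers at 326 RPKM, and E11.5 control 1, at 5.66 RPKM, had the lowest marker sum of its group at 189 RPKM. Other libraries stood in another order. Sox9cKO 2 had the lowest marker sum of its group (183 RPKM) but Sox9cKO 3 the lowest Fgfr3 level (7.49 RPKM, with 209 RPKM), and E11.5 control 2 had the highest marker sum of its group (265 RPKM) but control 3 the highest Fgfr3 level (9.26 RPKM). Sox9null 1 and 2, with marker sums of 136 and 145 RPKM, had higher Fgfr3 levels (5.84 and 6.99 RPKM) than E11.5 control 1. The list holds Sox9 itself and direct SOX9 targets. Their part in the Fgfr3 values was not tested. Markers of surface ectoderm and apical ridge, where the ridge FGFs are made, summed to 206 to 248 RPKM in E11.5 controls, 217 to 296 in Sox9null libraries, 260 to 264 in E12.5 controls and 229 to 258 in Sox9cKO libraries. Erythroid markers summed to 814 to 930 RPKM in E11.5 controls, 835 to 1462 in Sox9null libraries, 621 to 677 in E12.5 controls and 861 to 1064 in Sox9cKO libraries. In the same order, skeletal muscle markers summed to 62.2 to 92.5, 67.4 to 101, 181 to 218 and 133 to 190 RPKM. Nerve and Schwann cell markers summed to 38.0 to 42.3, 33.6 to 40.7, 60.3 to 64.2 and 52.1 to 62.1 RPKM. Against controls, 5 of 9 muscle and 3 of 4 nerve markers had negative differences at E11.5, beside 5559 of all 12880 genes. At E12.5 these were 7 of 9 and 3 of 4, beside 5560 of all genes. None of these muscle and nerve markers was called at either stage. Cartilage markers were negative in 13 of 14 and 14 of 14. All 11 erythroid and all 10 endothelial markers were positive at both stages. Of these, the erythroid gene Rhag was called at E12.5 (limma adjusted p = 0.0375). Ectoderm and ridge markers were positive in 16 of 16 at E11.5 and 4 of 16 at E12.5. The part of any of these lists in the Fgfr3 values was not tested either.

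**Figure D3:**
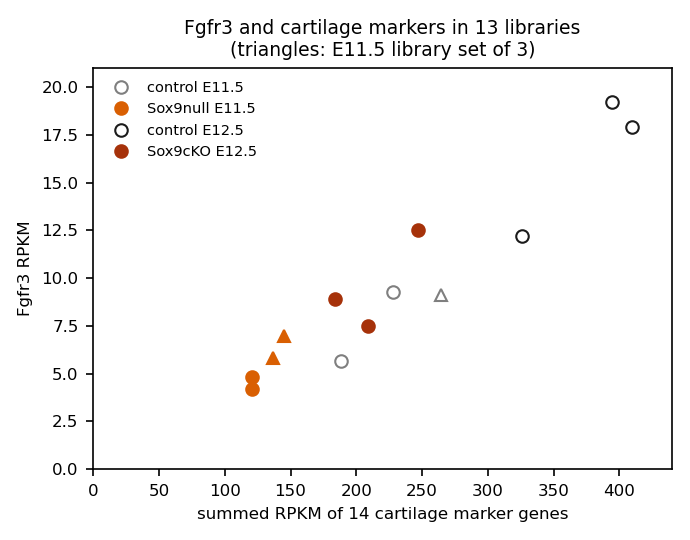
Fgfr3 level (y axis, RPKM) against the summed level of 14 cartilage marker genes (x axis, RPKM) in the 13 libraries, with open symbols for controls, filled symbols for mutants and triangles for the E11.5 library set of 3. Mutant libraries lie to the left of the controls of their stage, and the 3 E12.5 controls lie at the upper right.

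The receptor genes can also be read as shares of their own sum, which do not move where all genes of a library are scaled alike. The sum ran over Fgfr1, Fgfr2, Fgfr3 and Fgfr4, the last at group means of 3.88 to 5.37 RPKM. Fgfr1 held 49.0% ± 3.07 (SD, n = 3) of receptor RPKM in E11.5 controls, 50.7% ± 1.90 (n = 4) in Sox9null libraries, 32.6% ± 3.12 (n = 3) in E12.5 controls and 38.3% ± 3.67 (n = 3) in Sox9cKO libraries. Fgfr2 held 33.3% ± 1.08, 34.5% ± 1.38, 40.8% ± 0.416 and 40.7% ± 1.85 in the same order. Fgfr1 was thus the leading receptor transcript in every E11.5 library, and Fgfr2 took that place in the E12.5 controls.

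Fgfr3 held 11.8% ± 2.67, 8.66% ± 1.14, 19.99% ± 3.09 and 14.1% ± 2.95. Between stages its share was higher by 8.20 percentage points in controls (exact two-sided permutation p = 0.1, the smallest that 3 against 3 libraries can give) and by 5.39 points in mutants (exact permutation p = 0.0571, the smallest that 4 against 3 can give), without overlap in either. Mutants differed from controls by -3.12 points at E11.5 (exact permutation p = 0.114) and by -5.93 points at E12.5 (exact permutation p = 0.2), with overlap. Adjusted over these 4 comparisons, the permutation p was 0.152, 0.152, 0.152 and 0.2. None was below 0.05, and with 3 against 3 or 4 against 3 libraries none could have been.

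**Figure D4:**
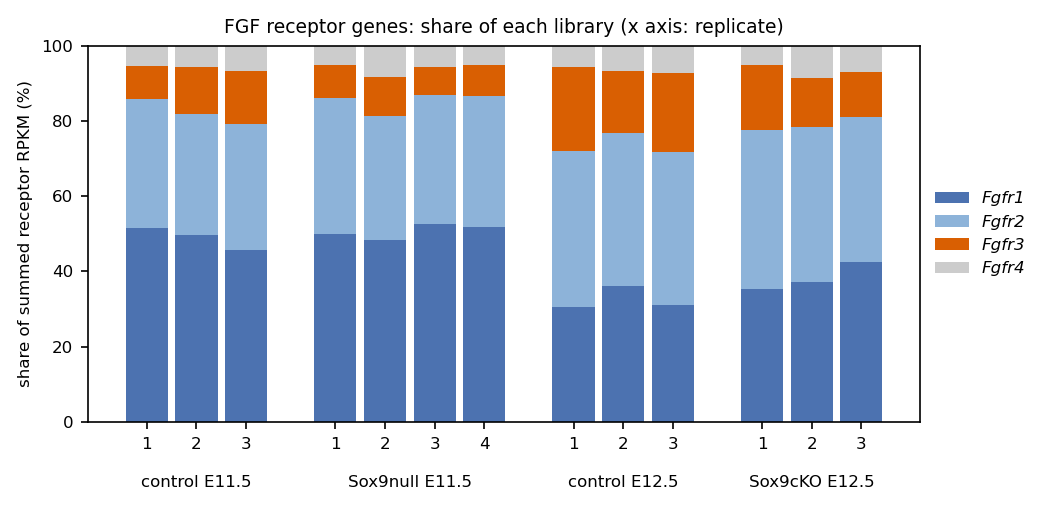
Share of the summed RPKM of Fgfr1, Fgfr2, Fgfr3 and Fgfr4 held by each (y axis, percent, stacked) in each library (x axis, by group and replicate). The Fgfr3 share averages 11.8% and 19.99% in E11.5 and E12.5 controls and 8.66% and 14.1% in the mutants, and the Fgfr1 share is smaller at E12.5.

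Other genes of the pathway give the setting. Of 22 FGF ligand genes, 6 were listed (Fgf8, Fgf9, Fgf10, Fgf11, Fgf13 and Fgf18). In controls between stages 3 of the 6 were called, against 21.7% of all genes (16.5% higher and 5.19% lower). Fgf8, the principal ridge ligand, fell by 0.92 (means of 14.9 RPKM at E11.5 and 7.33 RPKM at E12.5, adjusted p = 0.0205), and Fgf10, the mesenchymal ligand that maintains the ridge, fell by 0.65 (9.60 and 5.66 RPKM, adjusted p = 0.0477). Fgf11, an intracellular family member that does not signal through these receptors, rose by 1.00 (1.77 and 4.49 RPKM, adjusted p = 0.00473). Fgf11 met the authors' filter, a group mean of at least 3 RPKM, only through the E12.5 groups, which favours such a rise. In mutants between stages 0 of the 6 were called, against 19.7% of all genes. Fgf8 was at 17.3 and 10.4 RPKM (-0.68, adjusted p = 0.056) and Fgf11 at 2.23 and 3.34 RPKM (0.40, adjusted p = 0.137).

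Of 17 other receptors, co-receptors and adaptors, 15 were listed, and in controls 4 were called higher and 2 lower at E12.5. Among all genes, 16.5% were called higher and 5.19% lower. Flrt2, a membrane protein of the family that binds FGF receptors, rose by 0.84 (adjusted p = 0.00294), Fgfbp1, an FGF carrier, by 0.93 (0.0159), and the heparan sulphate proteoglycan genes Sdc2 and Sdc4 by 0.31 (0.00881) and 0.51 (0.0189). Like Fgf11, Fgfbp1 met the authors' filter only through the E12.5 groups, with means of 2.00 and 2.37 RPKM in E11.5 controls and Sox9null libraries. The glypican genes Gpc1 and Gpc3 fell by 0.21 (0.0149) and 0.41 (0.00441). The RAS-ERK relay, with 19 of 20 genes listed, had 0 called higher and 2 lower: Map2k2, an ERK kinase, fell by 0.26 (0.0224) and Plcg1, a receptor-bound phospholipase, by 0.16 (0.0222). The medians over the listed genes were -0.02 for the ligands, 0.10 for co-receptors and adaptors and -0.06 for the relay, beside 0.06 for all genes.

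Other ERK feedback and target genes, 21 of 27 listed, had 1 called higher and 2 lower in controls, with a median of -0.05. The shares of all genes called there were 16.5% higher and 5.19% lower. Il17rd, also known as Sef, a membrane antagonist of FGF signalling, fell by 0.32 (means of 34.2 and 27.2 RPKM, adjusted p = 0.00591) and Dusp9, another ERK phosphatase, by 0.36 (46.9 and 36.2 RPKM, 0.0222), while Dusp14 rose by 0.57 (3.66 and 5.77 RPKM, 0.0334). In mutants between stages Il17rd fell by 0.20 (0.0448) and Ets1, an ETS factor, rose by 0.26 (0.00612). Flrt2 and Sdc2 rose there by 0.65 (0.0107) and 0.23 (0.0318), and Rps6ka1, an ERK-activated kinase, by 0.29 (0.0169). Gpc1, Gpc3 and Plcg1 fell there by 0.18 (0.0279), 0.39 (0.00669) and 0.16 (0.0216).

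None of the 61 listed genes of these 4 lists was called in either comparison of mutant with control or in the difference between them. Of all genes, 0.0543% were called at E11.5, 0.194% at E12.5 and 0.0311% for the difference. With so few genes called at all, the absence of calls says little about these lists. The largest ligand differences were 0.22 for Fgf11 and 0.21 for Fgf8 at E11.5, and 0.46 for Fgf8 and 0.41 for Fgf10 at E12.5. Among co-receptors they were 0.27 (Flrt1) and 0.19 (Fgfbp1) at E11.5 and -0.21 (Flrt2) and -0.20 (Fgfbp1) at E12.5. In the relay they were -0.15 (Rps6ka3) and -0.10 (Cbl) at E11.5 and 0.17 (Rps6ka1) and -0.16 (Gab1) at E12.5. Among the other feedback genes they were -0.20 (Phlda1) and -0.14 (Ets2) at E11.5 and 0.34 (Dusp5, adjusted p = 0.5) and 0.21 (Dusp9) at E12.5. For the difference of the mutant effects between stages they were -0.60 (Fgf11) and 0.32 (Fgf10) among the ligands, -0.38 (Fgfbp1) and -0.19 (Flrt2) among co-receptors, 0.27 (Rps6ka1) and 0.16 (Rps6ka3) in the relay, and 0.26 (Dusp9) and 0.20 (Dusp5) among the other feedback genes, each with an adjusted p of 1.

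**Figure D5:**
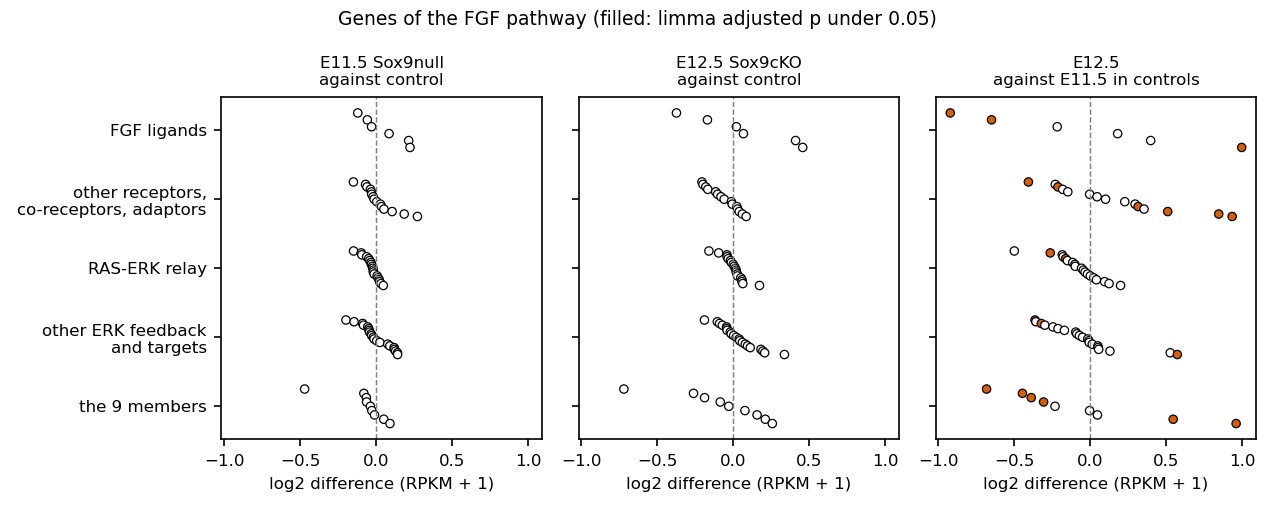
Log2 differences of RPKM + 1 (x axis) of the listed genes of 4 pathway lists and of the 9 genes described (y axis, points spread within a list for legibility) in 3 comparisons, filled where the limma adjusted p was under 0.05. No point is filled in the mutant comparisons; by stage in controls, filled points lie on both sides of 0 in every list except the RAS-ERK relay, where both lie below 0.

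The authors' deposited table gives an adjusted p for each gene from a one-way analysis of variance over all 4 groups, which names no pair of groups. In the authors' deposited table it was 0.012 for Fgfr1, 0.00862 for Fgfr2, 0.016 for Fgfr3 and 0.0124 for Spry4, and between 0.0784 and 0.85 for Etv4, Dusp6, Etv5, Spry2 and Spry1.

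For each of the 6 genes called in a comparison, the genes with the most similar pattern were those with the smallest mean absolute difference of log2(RPKM + 1) over the 13 libraries, each gene centred on its own mean, among 11852 genes. For Fgfr3 they were Mef2c (0.16), which encodes a transcription factor of muscle and hypertrophic cartilage, Cpxm2 (0.16) and Sema3d (0.16), with 0.49 as the median over all genes compared. Mef2c averaged 9.07, 6.92, 19.2 and 14.2 RPKM in E11.5 controls, Sox9null, E12.5 controls and Sox9cKO. Fgfr2 was nearest to Atp9a (0.05), Tox3 (0.06) and Epb4.1l1 (0.06), and Fgfr1 to Gtf2i, Fnbp1l and Smarca4 (0.03, 0.03 and 0.04). Spry4 was near to Greb1 (0.07) and Msi1 (0.08), and Dusp6 nearest to Cct7, Psmb5 and Ptges3 (each 0.04). Etv4 was nearest to Pim1, Ier2 and Crmp1 (each 0.07). None of the genes named here for their pattern is one of the 9, and the libraries compared share the E11.5 sets described above.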

How the data were processed

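Per the labels, limb bud RNA (RNeasy Mini Kit) went into standard Illumina libraries. The submitters' processing notes name CASAVA 1.8 and mm10. The sources used here name no aligner, counting method, strand setting or annotation. The authors deposited normalised RPKM for genes with a group mean of at least 3 in at least 1 of 4 groups, per the file headers, and deposited p-values from one-way analysis of variance adjusted by Benjamini-Hochberg. In short genes, the best step size tried per library put 37.8% to 47.1% of low values within 0.15 of a multiple. At a step fixed beforehand, 30% would lie there with no steps of whole reads. As the best step was kept and the authors' gene lengths are unknown, this check cannot show whether steps exist. No count model was used.

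RPKM were taken as log2(RPKM + 1), and a filter of 1 RPKM or more in 3 or more libraries removed 0 of 12880 genes. limma 3.58.1 (R 4.3.3; trend, robust) fitted 4 group means, and p-values were adjusted over all genes. It was tested on simulated data. Shares used exact permutation tests (SciPy 1.17.1). GENCODE IDs matched 12715 genes. The limma p-values rest on a single estimate of the spread per gene, shared by the libraries of all 4 groups around their group means. That spread includes the differences between the E11.5 library sets. All 9 genes were named in every comparison, and the 3 genes of most similar pattern for each called gene (1 is not reported here); from each other pathway list, every gene called, and otherwise the 2 largest differences. The genes and lists were chosen with earlier results of these data known. Alternatives were another pseudocount (0.1), filter (mean of at least 5 RPKM) or scaling, added terms for replicate number, library set or sex, only the groups compared, and each library left out. In the library set term, the E12.5 libraries shared the code of the E11.5 set of 4.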

Additional observations from a re-analysis of the deposited data

How the results depend on the processing

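Of 936 alternative values for the 9 genes, 893 kept their direction, where called, and their side of the threshold, 38 lost a call, 5 gained one and 0 called values reversed. In neither comparison of mutant with control, nor in the difference between them, was any of the 9 called under any alternative run. Of the 9, 6 were called by stage in controls, and 3 to 6 with 1 library left out (3 without E11.5 control 1, E12.5 control 1 or E12.5 control 3). In mutants 4 were called by stage, 2 with quantile normalization, 2 with only the groups compared, and 0 to 4 with 1 library left out (0 without Sox9cKO 1 or 2).

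Of all genes, 7 were called at E11.5 against the mutant, 41 with the library set as a term, 0 with only the groups compared, and 2 to 8 with 1 library left out. At E12.5 the count was 25, and 9 with the filter at a mean of 5 RPKM, 57 with quantile normalization, 105 with the library set, and 9 to 47 with 1 library left out. The difference of the effects had 4, with 2 at a pseudocount of 0.1, 0 with the filter, 2 after rescaling without haemoglobin genes, and 1 to 11 with 1 library left out. By stage, 2794 in controls became 5745 and 2539 in mutants became 4990 with the library set, whose term coded E12.5 libraries like the set of 4. In mutants only the groups compared gave 924. With 1 library left out these counts ran from 1381 to 3374 and from 708 to 2976. The Fgfr3 share differences ran from -4.59 to -1.99, from -7.67 to -4.72, from 6.73 to 9.94 and from 3.71 to 6.49 percentage points with 1 library left out. The causes were not tested.

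With the replicate block, 14 genes were called at E12.5 against the mutant and 1 for the difference of effects; Dusp6 (adjusted p = 0.0525) and Etv4 (0.062) lost their calls in controls and Fgfr3 (0.0948) in mutants. Deviations of same-numbered libraries from their group means correlated across genes with r of -0.43, 0.64 and 0.44 at E11.5 and 0.17, 0.03 and -0.12 at E12.5. At E11.5, control 2 and Sox9null 2 lay in the same library set, as did control 3 and Sox9null 3. Control 1 and Sox9null 1 lay in different sets. Depth is unknown, and the number of libraries limits the precision.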
